A study of Rattus norvegicus with 36 samples.

Results

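Among 14984 protein-coding genes of rat lung slices, 180 were lower when pirfenidone was added to TGFb and met limits on the differences made by culture and by TGFb itself. They were chosen on the deposited log2 CPM (log2 of counts scaled to a common library size), from the mean of each group of 6 libraries. A gene was kept when its highest group mean was 1 or more, when untreated slices at the labelled time 72 differed from those at 0 by less than 1, and when TGFb alone differed from untreated slices at 72 by less than 0.5. It also had to be lower with pirfenidone than with TGFb alone by at least 0.8. The level, culture and TGFb limits were met by 8240 genes. The 180 are called the pirfenidone-lowered genes here, and the other 8060 the remaining stable genes. Stable refers to the culture and TGFb limits alone. The culture limit was wider than the pirfenidone limit, and over the 180 genes the culture difference ran from -0.98 to 0.97.

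The slices, thin living sections of rat lung kept in culture, fell into 6 groups of 6 libraries: TGFb with Pirf at 72, TGFb with Nint at 72, TGFb with Sora at 72, TGFb alone at 72, untreated at 72 and untreated at 0. Pirf, Nint and Sora are read as pirfenidone, nintedanib and sorafenib. No label gives a dose, a unit of time, a strain, an age or a sex, or tells if the replicates were different animals. All p-values below therefore reflect the spread among these libraries, which may be technical. Total counts lay between 15886958 and 32933012 per library.

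TGFb is a growth factor that drives fibroblasts to make matrix and is a main driver of lung fibrosis. Pirfenidone and nintedanib are drugs used against lung fibrosis. Nintedanib blocks the PDGF, FGF and VEGF receptor kinases. Sorafenib, a cancer drug, blocks RAF kinases and the VEGF and PDGF receptors. Pirfenidone lowers fibrotic and inflammatory responses, and its direct molecular target is not settled. The tables identify genes by Ensembl ID alone, and 0 of 32883 IDs could be paired with a symbol, so no gene function, lung marker, position or promoter is given. In tissue sections such as these, fewer cells of a type and less RNA per cell cannot be told apart.

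The size of the fall is a description, since it chose the genes. The difference between pirfenidone and TGFb alone ran from -3.78 to -0.80 on the log2 CPM scale, with a median of -1.05, which is a median fold of 2.07. It was at or below -1 in 106 genes, at or below -1.5 in 32 and at or below -2 in 14. The 3 genes just inside the limit had differences of -0.804, -0.802 and -0.801, and the 3 just outside it had -0.797, -0.797 and -0.795. In 143 of the 180, all 6 pirfenidone libraries lay below all 6 libraries with TGFb alone. That was so for 16.1% of the coding table. In 74 of the 180 the pirfenidone libraries lay below all other 30 libraries, against 2.22% of the coding table. The pirfenidone comparison chose these genes, so both counts describe them only.

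Averaged over the 180 genes, each pirfenidone library lay between 3.86 and 4.05 log2 CPM, with a median of 3.95. The nintedanib libraries lay between 5.01 and 5.39 (median 5.22) and the sorafenib libraries between 4.53 and 5.15 (median 4.68). With TGFb alone the libraries lay between 4.75 and 5.46 (median 5.20). Untreated slices had 4.80 to 5.32 at 72 (median 5.05) and 4.72 to 5.15 at 0 (median 5.05). The pirfenidone libraries stood close together and below every other library. The choice of genes set their mean below TGFb alone and untreated slices at 72, so this is a description. Sorafenib replicates 1 to 3 lay at 4.53 to 4.60, below every library with TGFb alone, and replicates 4, 5 and 6 lay at 4.76, 5.15 and 4.94, inside the range of TGFb alone. The 180 genes held 1.18% ± 0.0625 (SD, n = 6) of all counts with pirfenidone and 2.31% ± 0.373 with TGFb alone.

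**Figure D1:**
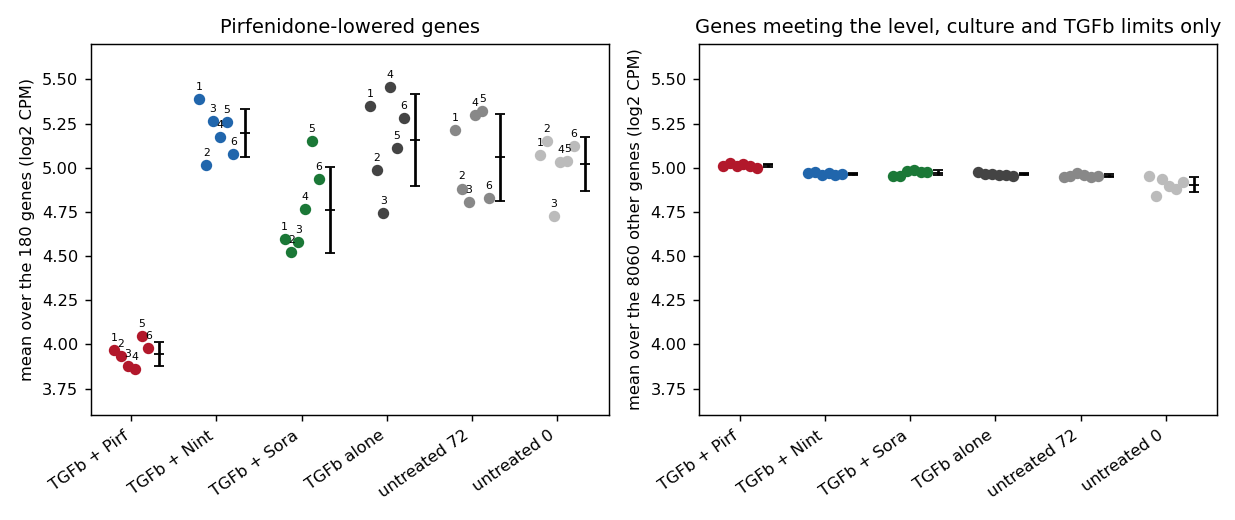
Mean log2 CPM per library over the 180 pirfenidone-lowered genes (left, replicate numbers beside the points) and over the 8060 remaining stable genes (right). Short black lines and bars are the mean ± SD of 6 libraries per group. The pirfenidone libraries lie at 3.86 to 4.05 on the left, where the choice of genes set them below TGFb alone. Sorafenib replicate 5 lies at 5.15, and all libraries on the right lie between 4.84 and 5.03.

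Library measures moved with this level, though not in the same way in each group. The scaling factors (TMM, trimmed mean of M values) were 1.06 to 1.08 with pirfenidone, 0.935 to 0.999 with nintedanib, 0.968 to 1.07 with sorafenib and 0.894 to 1.02 with TGFb alone. Sorafenib replicates 5 and 6 had the lowest sorafenib factors, 0.968 and 0.993. With TGFb alone, replicate 3 had the highest factor, 1.02, and the lowest mean over the 180 genes, 4.75. Replicate 4 had the lowest factor, 0.894, and the highest mean, 5.46. Genes absent from the coding table took 13.6% ± 0.728 of all counts with pirfenidone and 11.7% ± 0.676 with TGFb alone (SD, n = 6 each). Within groups this share ran both ways. TGFb-alone replicate 4 had the highest share of its group, 12.8%. Sorafenib replicates 4, 5 and 6 had 12.7%, 13.3% and 12.8%, and replicates 1, 2 and 3 had 11.2%, 10.8% and 10.2%. Pirfenidone replicate 5, with the highest mean of its group, had the lowest share, 12.5%. On library totals alone, with no scaling factor, 126 genes met the rule, 118 of them among the 180, and the median of all coding genes between pirfenidone and TGFb alone moved by 0.14. The part of these measures in the result was not otherwise tested.

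The difference between pirfenidone and untreated slices at time 0 is the sum of the 3 differences that the rule limited, so its sign was largely set by the choice of genes and it is given as a description. The mean with pirfenidone was below the time-0 mean in 164 of the 180 genes, with differences of -4.50 to 0.45 and a median of -1.01. All 6 pirfenidone libraries lay below all 6 time-0 libraries in 111 genes, against 24.7% of the coding table, and nothing is read from that count for the same reason. The lowest of the 6 group means belonged to pirfenidone in 157 genes, to untreated slices at 0 in 15, to sorafenib in 7 and to nintedanib in 1. The highest group mean lay at time 0 in 69 genes and with nintedanib in 59. The order of the pirfenidone mean among the groups is likewise tied to the choice. Against untreated slices at 72 the pirfenidone mean was lower in all 180, which the limits on TGFb and pirfenidone together force.

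**Figure D2:**
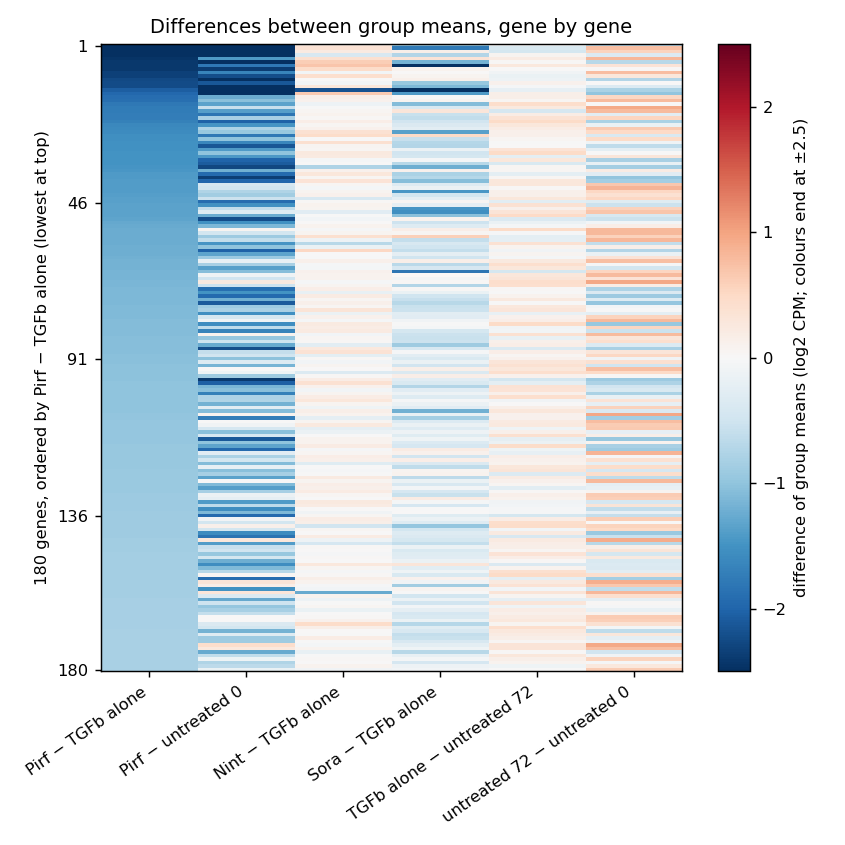
Differences between group means (log2 CPM) for the 180 genes, one line per gene, ordered by the difference between pirfenidone and TGFb alone. Blue is lower and red higher in the group named first. The column for pirfenidone is blue throughout because the rule chose it so, the time-0 column is below 0 in 164 genes, and the nintedanib column is pale in most lines.

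ENSRNOG00000026607 had the lowest difference, -3.78, which is 13.8-fold. Its log2 CPM ran from -2.92 to -1.45 with pirfenidone (median -1.97), from 1.66 to 2.19 with nintedanib (median 1.99) and from 0.58 to 1.52 with sorafenib (median 0.70). It ran from 1.09 to 2.13 with TGFb alone (median 1.78), and untreated slices had medians of 1.76 at 72 and 2.62 at 0. Its pirfenidone libraries stood far below all others, and its sorafenib libraries lay below all 6 nintedanib libraries.

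ENSRNOG00000002525 was second, at -2.89. Its log2 CPM ran from 4.52 to 6.59 with pirfenidone (median 5.03), from 7.87 to 9.11 with nintedanib (median 8.51) and from 4.43 to 8.13 with sorafenib (median 6.13). With TGFb alone it ran from 5.58 to 9.28 (median 8.65). This gene varied widely between libraries outside nintedanib. The pirfenidone range overlapped that of TGFb alone through pirfenidone replicate 5, at 6.59, and TGFb-alone replicate 3, at 5.58.

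The genes covered a wide range of levels, which the rule bounded only from below. Means with TGFb alone ran from 0.67 to 12.4 log2 CPM with a median of 5.14, and the median over the coding table was 4.25. The most abundant gene had 11.4 to 11.8 log2 CPM with pirfenidone and 11.7 to 12.7 with TGFb alone. Its groups overlapped through TGFb-alone replicate 3, at 11.7. Its estimated counts were not whole numbers in 100% of the libraries, so its level is uncertain as described below for such genes. The least abundant had -2.23 to -0.41 with pirfenidone and 0.18 to 1.21 with TGFb alone, with no overlap.

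The spread between libraries was larger in these genes than in the coding table in each group, and smallest with pirfenidone. The median SD over 6 libraries was 0.16 log2 CPM with pirfenidone, 0.21 with nintedanib, 0.33 with sorafenib and 0.34 with TGFb alone. Over the coding table the medians were 0.13, 0.14, 0.20 and 0.19 in the same groups. The SD with pirfenidone was below that with TGFb alone in 146 of the 180 genes (81.1%) and in 72.6% of the coding table. No test was made of this difference.

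In 24 of the 180 genes (13.3%) the estimated counts were not whole numbers in over 50% of the libraries, against 11.3% of the coding table. RSEM gives such counts where reads are shared among similar sequences, so these levels are uncertain. In 3 of them 1 library had an estimated count under 0.5 while the median count lay between 68.2 and 2565. In 1 case this was pirfenidone replicate 4, and without it the difference between pirfenidone and TGFb alone was 0.19 in place of -1.23, so that gene met the rule through this library. In another it was pirfenidone replicate 3, and the difference was -1.07 without it and -2.33 with it. In the last it was sorafenib replicate 5. Of the 180, 134 met the pirfenidone limit whichever single pirfenidone or TGFb-alone library was left out. In 3 the difference rose above -0.5 without some single one of these libraries. Taken between group medians, the difference was above -0.8 in 24 of the 180 and above -0.5 in 5, and the highest was 0.03.

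Sorafenib was compared with nintedanib because neither group entered the culture, TGFb or pirfenidone difference. Both groups did enter the level limit, and 2 of the 180 genes reached it only through the nintedanib mean or the nintedanib and sorafenib means. With sorafenib 49 of the 180 genes (27.2%) were lower and 0 were higher at an adjusted p under 0.05 (edgeR's quasi-likelihood test, Benjamini-Hochberg adjustment over 15644 genes). Over all genes tested 4.56% were lower and 6.43% higher, 11.0% in all. Of these 15644 genes 14480 were in the coding table, from which the 180 were chosen, and the rest were not. The same holds for each share of all genes tested with edgeR in this form. At an unadjusted p under 0.05 (edgeR), 97 of the 180 were lower and 0 higher. The share of all genes at that limit was not counted, so nothing is read from these 2 counts. DESeq2 called 64 lower (35.6%) and 0 higher, against 7.35% lower and 7.53% higher over all genes. The median log2 fold change was -0.34 over the 180 genes and 0.02 over all genes, and 154 of the 180 were below 0, against 45.5% of all genes. Among the 8060 remaining stable genes 4.22% were lower, 6.72% were higher and the median was 0.01. No set test was made. Of the 2 genes that met the level limit through these drugs, 1 was among the 49, and it met the limit through nintedanib alone. Without those 2 genes, an alternative chosen after seeing the data, 48 of 178 were lower and 0 higher. This comparison has no baseline, so alone it cannot tell lower levels with sorafenib from higher levels with nintedanib. In the 49 genes the difference of means from untreated slices at 72 had a median of -0.49 with sorafenib (44 below 0). With nintedanib it was 0.26 (7 below 0). The comparison chose these 49, so both values are a description. The rule set no limit on the difference of nintedanib or sorafenib from any group.

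All 6 sorafenib libraries lay below all 6 nintedanib libraries in 21 of the 180 genes, against 2.14% of the coding table, and above them in 0, against 2.5%. The libraries contributed unequally. Sorafenib replicates 1 and 2 lay below the lowest nintedanib library in 138 and 135 genes, replicates 3, 4 and 6 in 111, 98 and 89, and replicate 5 in 45. The same counts were not made over the coding table, so they only compare these libraries with each other. Without sorafenib replicate 5 the number called lower was 90, while 8.56% of all genes were lower. Without sorafenib replicate 1, 2, 3 or 4 it was 26, 26, 27 and 30. Without nintedanib replicate 1, 3 or 5 it was 27, 29 and 30. Across all 12 such omissions 14.4% to 50% of the 180 were lower, against 2.21% to 8.56% of all genes, and the median log2 fold change stayed between -0.44 and -0.31. On library totals alone 47 were lower and 1 higher, and over all genes 2.76% were lower and 13.7% higher. Leaving out the 24 genes with shared reads, an alternative chosen after seeing the data, 44 of 156 were lower.

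**Figure D3:**
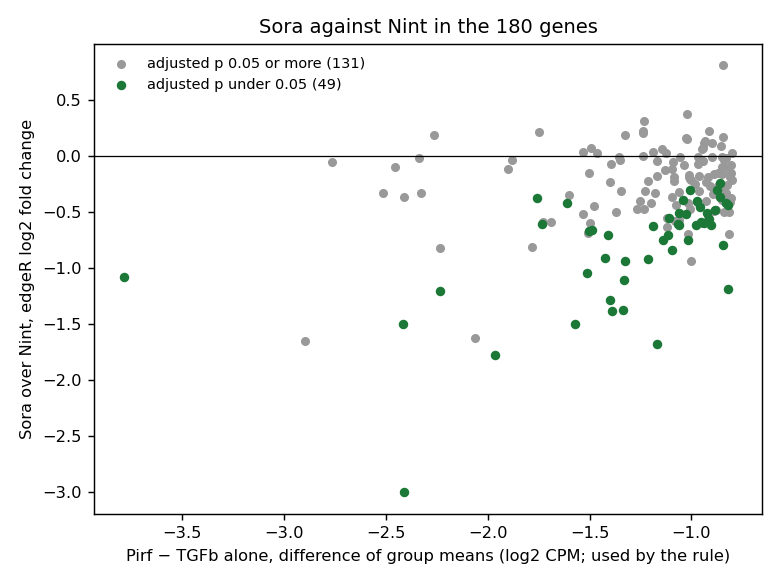
Sorafenib over nintedanib (edgeR log2 fold change, vertical) against the difference between pirfenidone and TGFb alone (log2 CPM, horizontal) in the 180 genes; the 2 comparisons share no library. The 49 genes called are green and lie below 0, and the 131 not called are grey.

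ENSRNOG00000037085 had the largest fall of the 49. It had -3.00, -2.12, -2.03 and -2.01 log2 CPM in sorafenib replicates 3, 1, 2 and 4 and 1.39 and 0.31 in replicates 5 and 6, against 1.92 to 3.03 with nintedanib (median 2.66). The groups did not overlap, although replicates 5 and 6 stood well above the other sorafenib libraries. The log2 fold change was -3.00 (SE 0.58, adjusted p = 0.00125 with edgeR, and 6.71e-06 to 0.00552 over 18 alternatives). It had -0.84 to 0.14 with pirfenidone and 0.39 to 2.88 with TGFb alone, so pirfenidone lay above sorafenib replicates 1 to 4.

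ENSRNOG00000003745 was next, with 5.52 to 7.88 log2 CPM with sorafenib (median 5.97) and 8.09 to 8.83 with nintedanib (median 8.51). Again the groups did not overlap, and sorafenib replicates 5 and 6, at 7.88 and 7.45, were the highest of their group. Its log2 fold change was -1.77 (SE 0.46, edgeR adjusted p = 0.0136, and 0.00263 to 0.0419 over 18 alternatives). ENSRNOG00000026607, the gene that pirfenidone lowered most, was also lower with sorafenib than with nintedanib (log2 fold change -1.08, SE 0.27, edgeR adjusted p = 0.00974, and 0.00109 to 0.028 over 18 alternatives). ENSRNOG00000002525 did not pass the test (log2 fold change -1.65, SE 0.59, edgeR adjusted p = 0.0627), and it was called under 6 of 18 alternatives (0.00942 to 0.136).

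The genes were also divided by the size of the pirfenidone difference, with no test between the classes. Of the 32 at or below -1.5, 11 were lower with sorafenib than with nintedanib (34.4%, median log2 fold change -0.56). Of the 74 between -1.5 and -1, 22 were lower (29.7%, median -0.38), and of the 74 above -1, 16 (21.6%, median -0.28). The differences of means in the 2 drug comparisons had a Pearson's r of 0.36 and a Spearman's rho of 0.21 across the 180 genes. Genes are not independent replicates, and each gene's level is common to both values, so this is a description. The 49 genes called and the 131 others had median pirfenidone differences of -1.11 and -1.02. Their median levels with TGFb alone were 6.46 and 4.91 log2 CPM. A higher level gives a more precise test, and its part in the call was not tested.

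The untreated libraries at 72, which had entered the culture and TGFb limits, gave a further comparison for sorafenib. With sorafenib 37 of the 180 genes (20.6%) were lower and 8 (4.44%) higher than in untreated slices (edgeR), while 11.9% of all genes were lower and 13.1% higher, 25.0% in all. Among the 8060 remaining stable genes 9.84% were lower and 13.0% higher. The median log2 fold change was -0.19 over the 180 and 0.01 over all genes. The number lower was 63 without sorafenib replicate 5 and 23 without replicate 3. It was 21, 23 and 22 without untreated replicate 1, 4 or 5. Over those omissions 11.7% to 35% of the 180 were lower, against 8.76% to 14.2% of all genes. The number higher was 5 (2.78%) without sorafenib replicate 3 or untreated replicate 2, against 9.02% and 11.6% of all genes. It was 4 (2.22%) without sorafenib replicate 4 or untreated replicate 3, against 10.4% and 12.5%.

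ENSRNOG00000037085 fell most here too (log2 fold change -2.15, SE 0.57, edgeR adjusted p = 0.00606). ENSRNOG00000007830 was next and had 4.22 to 6.36 log2 CPM with sorafenib (median 4.66) and 6.76 to 7.69 in untreated slices at 72 (median 7.28), with no overlap. Its log2 fold change was -2.07 (SE 0.34, edgeR adjusted p = 4.21e-05). It also lay below nintedanib (log2 fold change -1.68, SE 0.34, edgeR adjusted p = 0.00198). Its 5.35 to 6.09 log2 CPM with pirfenidone exceeded 4 of its sorafenib libraries.

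The rises called with sorafenib were smaller than these falls. ENSRNOG00000051470 had 3.66 to 4.43 log2 CPM with sorafenib and 3.20 to 3.66 in untreated slices at 72, so that the groups met but did not overlap (log2 fold change 0.67, SE 0.13, edgeR adjusted p = 0.000372). ENSRNOG00000007159 had 9.35 to 9.54 with sorafenib and 8.58 to 9.12 in untreated slices, with no overlap (log2 fold change 0.61, SE 0.15, edgeR adjusted p = 0.00254). With pirfenidone this gene had 7.07 to 7.56 and with TGFb alone 8.61 to 9.47. Pirfenidone and sorafenib thus lay on opposite sides of untreated slices at 72, while untreated slices at 0, at 8.43 to 9.69, spanned the sorafenib values. With nintedanib the gene had 9.21 to 9.66 and was also higher than in untreated slices at 72 (log2 fold change 0.58, SE 0.15, edgeR adjusted p = 0.00299).

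With nintedanib these genes stood near their untreated level. Against untreated slices at 72, 24 of the 180 genes (13.3%) were higher with nintedanib and 3 (1.67%) lower (edgeR), while 12.6% of all genes were higher and 13.9% lower, 26.4% in all. The share higher was thus close to the background, and the share lower was below it. Among the 8060 remaining stable genes 10.5% were higher and 10.1% lower. The TGFb limit held the 180 genes near untreated slices with TGFb alone, so the choice of genes can bear on this closeness. The median log2 fold change was 0.14 over the 180 and near 0 over all genes. Without nintedanib replicate 1, 15 were higher. The number lower was 1 without nintedanib replicate 2, 4 or 6 or untreated replicate 4 or 6. On library totals alone 20 were higher and 5 lower, and over all genes 7.93% were higher and 17.6% lower. The largest called rise was that of ENSRNOG00000024390, which had 4.79 to 5.30 log2 CPM with nintedanib and 3.80 to 4.74 in untreated slices, with no overlap (log2 fold change 0.68, SE 0.21, edgeR adjusted p = 0.013). It was followed by ENSRNOG00000050968, with 3.54 to 4.05 with nintedanib and 2.74 to 3.37 in untreated slices without overlap (log2 fold change 0.67, SE 0.16, edgeR adjusted p = 0.00166).

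Nintedanib and sorafenib were then set beside TGFb alone, whose libraries were also the baseline of the pirfenidone difference, so the choice of genes can bear on both values. With nintedanib 1 of the 180 genes (0.556%) was lower and 0 higher than with TGFb alone (edgeR), against 2.21% lower and 0.882% higher over all genes, 3.09% in all. Without TGFb-alone replicate 2 or 4, 1 was higher (0.556%), against 0.508% and 0.71% of all genes. At an unadjusted p under 0.05 (edgeR), 3 were lower and 5 higher. The share of all genes at that limit was not counted here either, so nothing is read from these 2 counts. DESeq2 called 1 lower and 0 higher, against 2.73% lower and 1.62% higher over all genes. The median log2 fold change was 0.01. With sorafenib 53 genes (29.4%) were lower and 2 (1.11%) higher, against 8.37% and 7.01% over all genes, 15.4% in all, with a median of -0.36. The number lower with sorafenib was 28, 26 and 30 without sorafenib replicate 1, 2 or 3, and 28, 23 and 33 without TGFb-alone replicate 1, 4 or 6. It rose to 79 and 58 without sorafenib replicate 5 or 6, and to 62 and 72 without TGFb-alone replicate 2 or 3. Across all 12 omissions 12.8% to 43.9% of the 180 were lower, against 5.47% to 11.4% of all genes. With no filter on low counts the number lower was 34 (18.9%), against 3.05% of all genes. On library totals alone 41 were lower and 2 higher, and over all genes 4.37% were lower and 13.9% higher.

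**Figure D4:**
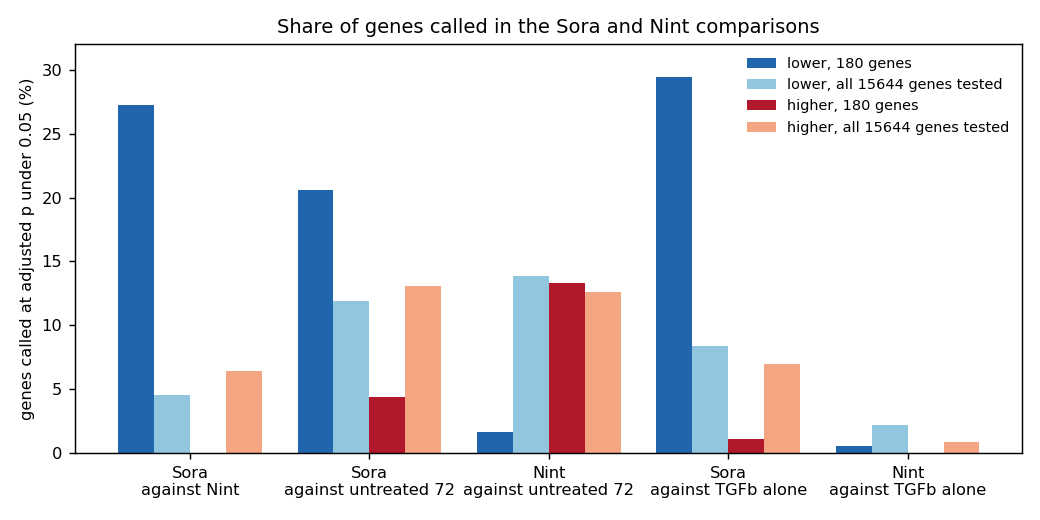
Percentage of genes called lower (blue) and higher (red) at an edgeR adjusted p under 0.05 in 5 comparisons, for the 180 pirfenidone-lowered genes (dark) and for all 15644 genes tested (light). With sorafenib against nintedanib 27.2% of the 180 are lower, against 4.56% of all genes, and with nintedanib against TGFb alone 0.556%, against 2.21%.

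The single gene called for nintedanib against TGFb alone was ENSRNOG00000003538, singled out after its value was seen. It had 5.04 to 5.74 log2 CPM with nintedanib (median 5.54) and 5.96 to 6.62 with TGFb alone (median 6.25), with no overlap. Its log2 fold change was -0.79 (SE 0.17, edgeR adjusted p = 0.00553, and 0.000157 to 0.0253 over 18 alternatives). It had 4.58 to 4.89 with pirfenidone and 4.62 to 5.51 with sorafenib, so all 3 drugs lay below the 6.05 to 6.29 of untreated slices at 72. Of the genes called it also had the largest fall with nintedanib against untreated slices (log2 fold change -0.71, SE 0.17, edgeR adjusted p = 0.00188). ENSRNOG00000020150 was next in that comparison (log2 fold change -0.45, SE 0.16, edgeR adjusted p = 0.0344). Its call was lost without nintedanib replicate 2, 4 or 6 or untreated replicate 4 or 6, and with no filter on low counts (adjusted p = 0.0818, 0.064, 0.053, 0.111, 0.0726 and 0.0639 with edgeR).

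**Figure D5:**
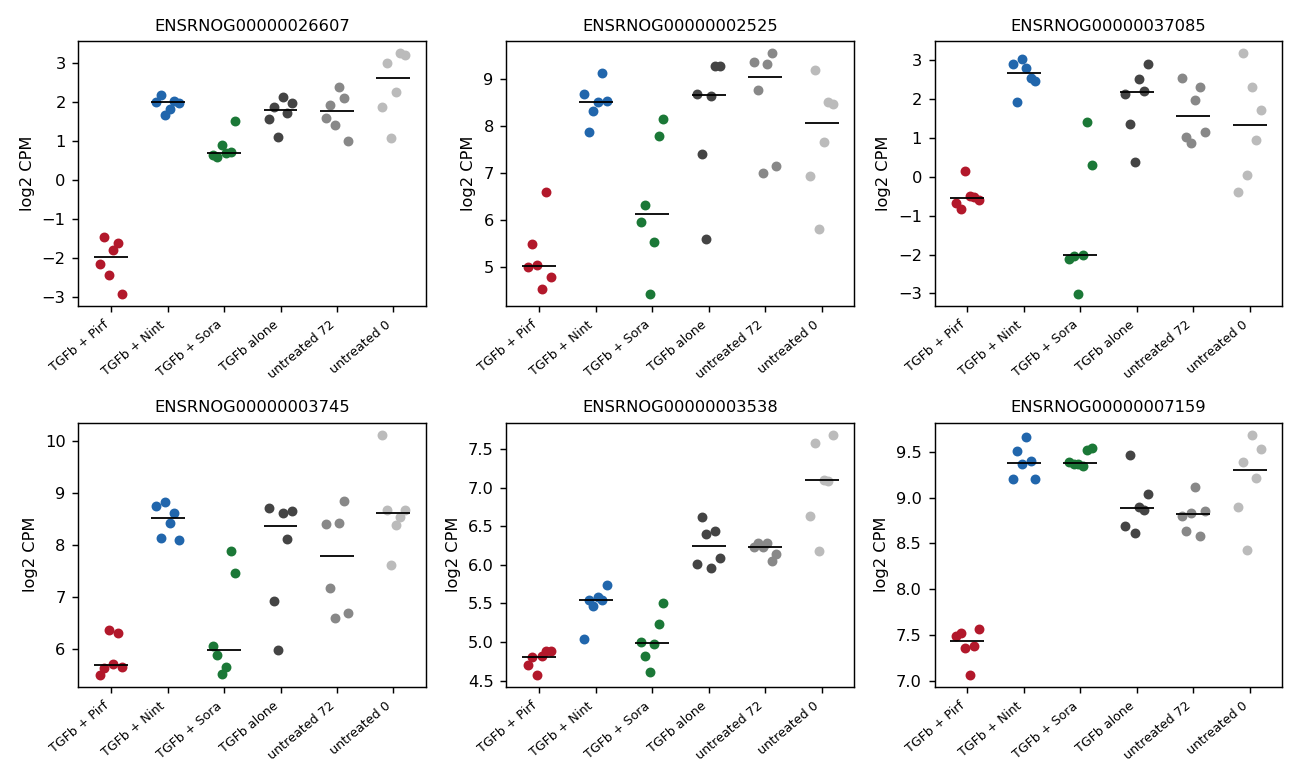
Log2 CPM in each of the 36 libraries for 6 of the named genes, by group; black lines are group medians of 6 libraries. In ENSRNOG00000037085 and ENSRNOG00000003745 sorafenib replicates 5 and 6 stand above the other 4, ENSRNOG00000003538 is lower with all 3 drugs than with TGFb alone, and ENSRNOG00000007159 is low with pirfenidone and at 9.35 to 9.54 with sorafenib.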

How the data were processed

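RNA was sequenced from 36 rat lung slice samples, as stranded total RNA after removal of ribosomal RNA, per the labels' protocols. RSEM, edgeR and the build Rnor_6.0 are named per the submitters' processing notes. Which aligner and annotation were used is not given in the sources used here; nor is the strand setting. The deposited expected counts per gene are the authors' estimates with no scaling. The deposited log2 CPM of the authors equalled what edgeR computes with TMM scaling and 0.25 as its prior count, with differences of at most 4.97e-14.

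The rule was applied to the log2 CPM table. For tests, expected counts were rounded, filterByExpr kept 15644 genes, all 180 members among them, and 1 edgeR 4.0.16 quasi-likelihood fit in R 4.3.3 held all 36 libraries with TMM factors and no covariate. Calls used a Benjamini-Hochberg adjusted p under 0.05. The SE was taken as the size of the log2 fold change over the root of its F. The procedure was tested on simulated data. Alternatives used DESeq2 1.42.0, limma 3.58.1, library totals, no filter, the 72 libraries alone, a replicate block and each library left out.

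The members and lists were chosen with earlier results of these data known. For lack of symbols, 15 cell type and 33 pathway lists could not be used. Named IDs were limited to 2 per direction: the lowest pirfenidone differences, and the largest called changes of sorafenib or nintedanib against each other or untreated slices. The most and least abundant members and those nearest the limit are described without an ID.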

Additional observations from a re-analysis of the deposited data

Results flagged for a closer look

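The highest or lowest library was compared with its group of 6 by the share of the group's range that its gap to the nearest library took up, for the mean over the 180 genes and each named gene. Of 72 such groups, 4 exceeded Dixon's 95% critical value, and chance alone gives about 1 in 20. Averaged over the 180 genes, replicate 3 of untreated slices at 0 lay at 4.72 log2 CPM and the other 5 at 5.03 to 5.15. Replicate 3 was also the lowest of its group with TGFb alone, at 4.75, and in untreated slices at 72, at 4.80, where its gap did not exceed that value. ENSRNOG00000026607 stood at 1.52 in sorafenib replicate 6 and at 0.58 to 0.88 in the other 5. ENSRNOG00000037085 stood at 0.14 in pirfenidone replicate 3 and at -0.84 to -0.51 in the others. ENSRNOG00000024390 stood at 3.42 in pirfenidone replicate 3 and at 3.24 to 3.30 in the others.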

How the results depend on the processing

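With a limit of -1 on the pirfenidone difference 106 genes met the rule, and with a TGFb limit of 0.25 it was 111. Leaving out 1 pirfenidone or TGFb-alone library gave 162 to 222 genes, of which 151 to 177 were among the 180. Leaving out 1 library gave 26 to 90 genes called for sorafenib against nintedanib, 17 to 29 for nintedanib and 27 to 70 for sorafenib against untreated slices at 72, and 1 to 2 for nintedanib and 24 to 81 for sorafenib against TGFb alone. Against TGFb alone, nintedanib called 2 genes on library totals alone and 3 in a fit of the libraries at 72, and sorafenib called 36 with no filter on low counts. Other alternatives moved no count of called genes by over 1.5 times. Same-numbered libraries of different groups correlated between -0.261 and 0.481 in their deviations from group means, all 6 pairs exceeded 0.1 in 0 of 15 pairs of groups, and 10 of 36 libraries matched their own number best, so the numbers were not taken to pair the samples. Replicate 3 nevertheless had the lowest mean over the 180 genes in TGFb alone (4.75), untreated slices at 72 (4.80) and untreated slices at 0 (4.72), but not with the 3 drugs. With the replicate block 66 genes were called for sorafenib against nintedanib (49 without the block), while 5.87% of all genes were lower and 7.21% higher. Against untreated slices 28 were called for nintedanib (all genes 14.1% lower, 12.9% higher) and 51 for sorafenib (12.6% and 13.7%). Against TGFb alone it was 1 for nintedanib (all genes 2.17% lower, 0.946% higher) and 61 for sorafenib (8.96% and 7.67%). Over named genes and alternatives, 0 values changed sign among called genes, 52 lost and 13 gained a call, and 1079 stayed as they were. The 1079 include the pirfenidone differences, which chose the genes and carry no call, and values called in neither fit. They are therefore not a count of calls kept. The cause of the lost and gained calls was not tested. Total counts of 15886958 to 32933012 limit the genes near 0 log2 CPM most.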
